A study of Mus musculus with 14 samples.

Results

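Cx3cr1 and 5 further genes that are associated with microglia, Gpr34, P2ry12, P2ry13, Olfml3 and Aif1, were followed in mouse bone marrow-derived macrophages. These are 6 of the 25239 gene symbols in the deposited table, each found by its symbol, and all 6 had enough counts to be tested. Cx3cr1 and Gpr34 were picked because they fell far in hepatoma-conditioned medium, so their response to that medium is described here without a test. The macrophages were grown for several days from bone marrow with medium from L929 cells, and then kept for 24 h in 1 of 2 media. The conditioned medium (CM) came from cultures of Hepa1-6, a hepatoma line of the mouse, and the control was complete DMEM. Serum is given as 10% for all 14 libraries. Medium conditioned by other cells was not analysed here. Knockout cells (KO) came from Ezh2fl/fl;LysM-Cre+/- mice, in which Cre made from the lysozyme M gene deletes floxed Ezh2 in myeloid cells. Cells labelled WT came from littermates, whose own alleles the labels do not give. There were 3 KO and 4 WT libraries in CM, and 3 KO and 4 WT libraries in control medium, 14 in all.

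CX3CR1 is the receptor of fractalkine (CX3CL1), a chemokine that sits on the membrane of other cells and is cut loose by the proteases ADAM10 and ADAM17. In the brain it marks microglia, and in blood it marks patrolling monocytes. GPR34 is a receptor for lysophosphatidylserine, a lipid. P2RY12 and P2RY13 are receptors for ADP, and P2RY12 guides microglial processes toward released nucleotides. OLFML3 is a secreted protein of the olfactomedin family, and AIF1 (IBA1) is a calcium-binding protein that bundles actin and is the standard stain for microglia. EZH2 is the enzyme of the PRC2 complex that methylates lysine 27 of histone H3, a mark of silenced genes.

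The cells carried the genes of macrophages and few of the defining genes of microglia. Sall1, a transcription factor of microglia, had 0 counts in all 14 libraries. Tmem119 had 2 counts over the 3 KO libraries in CM, 9 over the 4 WT libraries in CM, 16 over the KO libraries in control medium and 8 over the WT libraries in control medium. Fcrls and P2ry12 were among the microglia markers that reached 1 CPM in each group. The 6 genes are therefore called microglia-associated only for where they are best known. CPM stands for counts per M (mega-count) of the library total after TMM scaling, a correction for library composition.

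Library totals ran from 40.2 to 85.8 M exon counts. WT libraries 3 and 4 of both media were the deepest, at 80.4 M or more, against at most 61.5 M in the other 10, and they spread their counts differently over exons. The 208-bp exon of Aif1, for example, held 13.9, 13.2 and 12.8% of the gene's counts in the KO control libraries. It held 12.9 and 13.8% in WT control libraries 1 and 2 and 21.7 and 20.7% in WT control libraries 3 and 4. Some KO to WT differences are therefore also given against WT libraries 1 and 2 alone and against 3 and 4 alone. These are Cx3cr1 in both media, and Gpr34, Olfml3 and Aif1 in control medium. The differences of other genes, and of these 3 in CM, are not split in this way. The deletion was seen in 2 Ezh2 exons of 81 and 85 bp, chosen after their values were seen, whose counts per base were 7.22 to 19.3% of those of the other exons in KO cells in CM and 94.0 to 143.2% in WT cells in CM. In control medium these were 2.07 to 31.7% in KO cells and 102.9 to 169.5% in WT cells.

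The start regions of 4 of the genes are shown because Cx3cr1 and Olfml3 changed far more than the neighbouring P2ry12 and P2ry13. Each runs from 250 bases before to 50 after the RefSeq start (GRCm38.p6, minus strand for all 4), 5′ to 3′. Capitals mark matches, on either strand, to AGGAAG (the core bound by PU.1 and other ETS factors) or GGGCGG (the GC box).
Cx3cr1, chr9:120068247-120068546: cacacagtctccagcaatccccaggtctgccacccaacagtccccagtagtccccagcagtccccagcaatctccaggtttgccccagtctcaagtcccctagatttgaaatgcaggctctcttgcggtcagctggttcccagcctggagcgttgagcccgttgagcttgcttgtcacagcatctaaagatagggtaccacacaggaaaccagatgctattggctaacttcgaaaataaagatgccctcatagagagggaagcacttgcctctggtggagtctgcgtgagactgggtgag
Olfml3, chr3:103737952-103738251: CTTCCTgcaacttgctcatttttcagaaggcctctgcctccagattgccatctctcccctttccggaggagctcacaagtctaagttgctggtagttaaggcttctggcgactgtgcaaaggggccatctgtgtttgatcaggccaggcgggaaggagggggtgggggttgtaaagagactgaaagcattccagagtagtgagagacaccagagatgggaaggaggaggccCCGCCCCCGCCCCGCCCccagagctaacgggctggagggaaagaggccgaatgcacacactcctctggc
P2ry12, chr3:59262936-59263235: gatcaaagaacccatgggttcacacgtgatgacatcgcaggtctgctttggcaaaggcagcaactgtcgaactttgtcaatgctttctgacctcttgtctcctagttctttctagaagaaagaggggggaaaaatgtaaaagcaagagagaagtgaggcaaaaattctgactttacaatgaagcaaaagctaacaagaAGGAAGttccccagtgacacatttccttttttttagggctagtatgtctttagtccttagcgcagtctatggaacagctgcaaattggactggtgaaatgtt
P2ry13, chr3:59210833-59211132: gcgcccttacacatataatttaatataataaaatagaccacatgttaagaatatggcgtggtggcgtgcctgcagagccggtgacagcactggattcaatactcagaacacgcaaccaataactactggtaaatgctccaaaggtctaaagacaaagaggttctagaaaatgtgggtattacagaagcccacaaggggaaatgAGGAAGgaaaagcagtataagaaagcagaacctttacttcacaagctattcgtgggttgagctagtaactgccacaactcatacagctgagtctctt
Cx3cr1 held no match to either motif, nor to the AP-1 motif TGANTCA or the interferon-stimulated response element. P2ry12 and P2ry13 each held 1 AGGAAG, at -52 and at -47 from the start. Olfml3 held 1 AGGAAG on the other strand at -250 and 3 GC boxes that overlap or adjoin at -19, -13 and -8, also on the other strand. Among 32851 promoter windows of the same 300 bases, 35.4% held AGGAAG, 35.7% the GC box, 7.81% the AP-1 motif and 3.44% the interferon element. A match is a description of letters and not of binding. Windows were matched for 5 of the 6 genes, and Gpr34 is named only. The Aif1 window lies at a distal start whose 2 exons, of 135 and 80 bp, had 31 and 4 counts in all libraries together, so it is not shown.

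By RefSeq on GRCm38.p6, all 6 genes are protein-coding. Cx3cr1 lies on chromosome 9 from 120048683 to 120068296, Aif1 on chromosome 17 from 35170986 to 35176083, and Olfml3 on chromosome 3 from 103735394 to 103738001, all on the minus strand. P2ry12 (chromosome 3, 59216271 to 59262985) and P2ry13 (chromosome 3, 59207892 to 59210882) are neighbours 5388 bp apart on the minus strand, both inside Med12l, which runs on the plus strand. Gpr34 (chromosome X, 13622650 to 13640859, plus strand) lies inside Cask, which runs on the minus strand. The strand setting of the authors' counting is not given in the sources used here, so reads of these overlapping genes cannot be told apart with certainty. Cask averaged 74.0 ± 6.01 CPM in KO cells in CM and 64.0 ± 3.71 CPM in KO cells in control medium (SD, n = 3 each). It averaged 70.2 ± 6.18 CPM in WT cells in CM and 69.0 ± 2.33 CPM in WT cells in control medium (SD, n = 4 each). Cask was 0.21 ± 0.08 higher on the log2 scale in CM in KO and 0.03 ± 0.07 in WT (edgeR adjusted p = 0.0484 and 0.818). 1 exon of P2ry12 overlaps an exon of Med12l, and 1 of Cx3cr1 overlaps the lncRNA Gm33858, which is not used here.

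**Figure D1:**
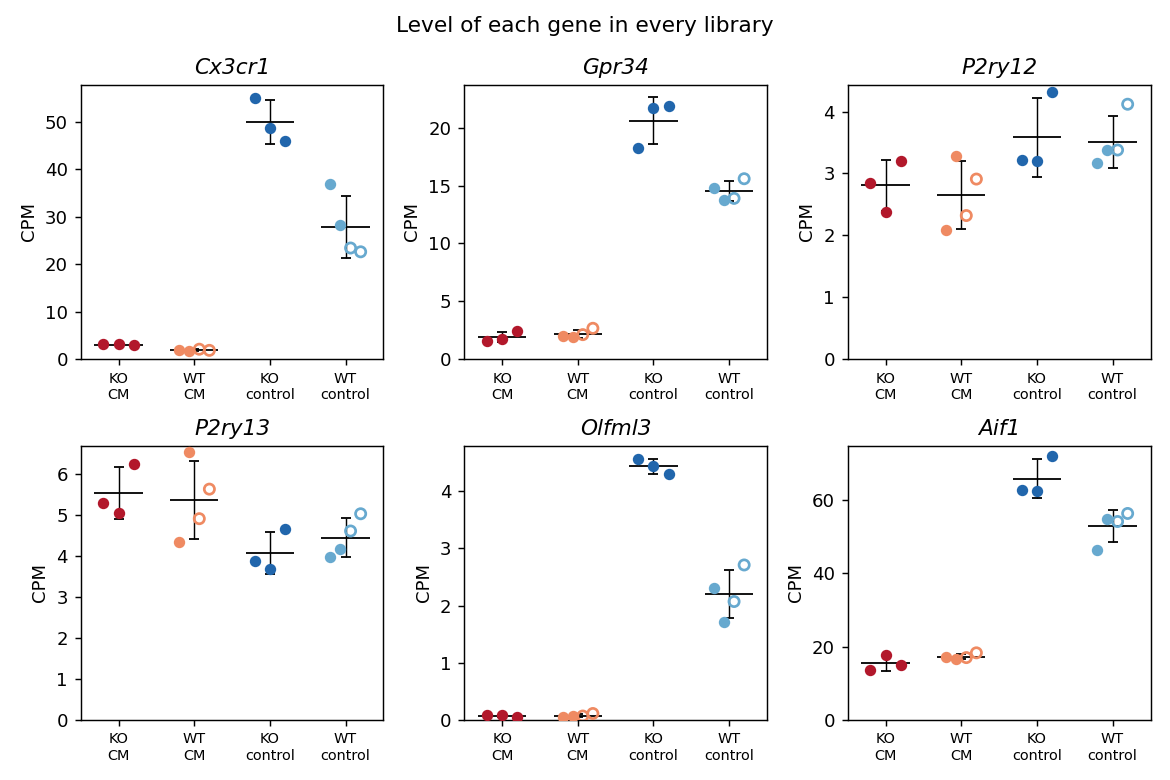
Level of each of the 6 genes (CPM, linear axis from 0) in every library, in KO and WT cells in CM and in control medium; points are libraries, open points are WT libraries 3 and 4, and bars are the mean ± SD. Cx3cr1, Gpr34, Olfml3 and Aif1 lie far lower in both CM groups, and P2ry12 and P2ry13 do not.

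The fractalkine receptor had only a small remainder of its RNA in CM. Cx3cr1 had 3.09, 3.1 and 2.92 CPM in KO libraries in CM, against 55.1, 48.8 and 46.0 CPM in KO libraries in control medium. In WT cells it had 1.91, 1.66, 2.07 and 1.83 CPM in CM, against 36.8, 28.3, 23.4 and 22.6 CPM in control medium. All 7 CM libraries were below all 7 control libraries. The log2 fold change in CM was -4.04 ± 0.17 (SE) in KO, a level of 6.08% of control medium, and -3.88 ± 0.15 in WT, or 6.78%. In WT it was -4.2 for libraries 1 and 2 alone and -3.56 for 3 and 4 alone. These values chose the gene and carry no test. In bulk RNA, fewer cells that express a gene and less of its RNA per cell cannot be told apart.

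Cx3cr1 was higher in KO than in WT cells in either medium, which the choice of the gene did not use. In CM it averaged 3.04 ± 0.103 CPM in KO (SD, n = 3) and 1.87 ± 0.172 CPM in WT (SD, n = 4). In control medium it averaged 49.9 ± 4.66 CPM in KO and 27.8 ± 6.5 CPM in WT. The KO libraries lay above every WT library in both media, which means no overlap, as for 20.9% of the 13311 tested genes in CM and 21.8% in control medium. The difference in control medium was 0.85 ± 0.13 on the log2 scale, or 1.8-fold (edgeR quasi-likelihood test, adjusted p = 0.00235). It was 0.62 against WT libraries 1 and 2 alone (edgeR adjusted p = 0.00279) and 1.12 against 3 and 4 alone (edgeR adjusted p = 5.12e-07), and it passed in all 26 alternatives. The difference in CM was 0.69 ± 0.17, or 1.62-fold (edgeR adjusted p = 0.0306). That call was lost when any 1 of the 7 CM libraries was left out (edgeR adjusted p from 0.0519 to 0.0986, fold changes from 0.65 to 0.75). It was also lost with a term for WT libraries 3 and 4 (0.50, edgeR adjusted p = 0.0823). It was 0.78 against WT libraries 1 and 2 alone and 0.64 against 3 and 4 alone (edgeR adjusted p = 0.0184 and 0.00105).

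Gpr34 was also lower in CM, by a smaller fold and from a lower CPM level. It had 1.57, 1.77 and 2.42 CPM in KO libraries in CM, against 18.3, 21.7 and 21.9 CPM in KO libraries in control medium. In WT cells it had 1.98, 1.92, 2.11 and 2.66 CPM in CM, against 14.8, 13.8, 13.9 and 15.6 CPM in control medium. The media did not overlap in either genotype. The log2 fold change in CM was -3.41 ± 0.16 (9.44% of control medium) in KO and -2.73 ± 0.13 (15.1%) in WT, again without a test. Gpr34 was higher in KO in control medium, by 0.51 ± 0.13 or 1.42-fold (edgeR adjusted p = 0.0314), and no KO control library overlapped a WT one. This call was lost without KO control library 2 or 3 or WT control library 3 or 4 (edgeR adjusted p = 0.136, 0.12, 0.0899 and 0.0553). Against WT libraries 1 and 2 alone it was 0.54 (edgeR adjusted p = 0.0343), and against 3 and 4 alone 0.49 (edgeR adjusted p = 0.0106). In CM the KO to WT difference was -0.17 ± 0.15 and did not pass (edgeR adjusted p = 0.516).

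The ADP receptors, which share a chromosomal neighbourhood, did not follow Cx3cr1 and Gpr34. P2ry12 had 2.84, 2.38 and 3.2 CPM in KO libraries in CM, against 3.22, 3.21 and 4.32 CPM in KO libraries in control medium. In WT cells it had 2.08, 3.28, 2.32 and 2.91 CPM in CM, against 3.17, 3.38, 3.38 and 4.12 CPM in control medium. The KO groups were narrowly separate and the WT groups overlapped. Its fold change in CM was -0.34 ± 0.19 in KO (edgeR adjusted p = 0.17) and -0.41 ± 0.16 in WT (edgeR adjusted p = 0.0587), neither past the threshold of 0.05. With the replicate number as a block the WT value was -0.41 (edgeR adjusted p = 0.0479), and with the block within genotype -0.42 (edgeR adjusted p = 0.0121). Over the 27 alternatives the WT adjusted p ran from 0.00891 to 0.39, and 8 passed. P2ry12 differed between KO and WT by 0.09 ± 0.18 in CM and 0.02 ± 0.17 in control medium (edgeR adjusted p = 0.798 and 0.95).

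P2ry13 lay higher in CM. It had 5.28, 5.04 and 6.24 CPM in KO libraries in CM, against 3.87, 3.68 and 4.64 CPM in KO libraries in control medium. In WT cells it had 4.34, 6.53, 4.9 and 5.62 CPM in CM, against 3.97, 4.17, 4.6 and 5.02 CPM in control medium. The KO groups did not overlap and the WT groups did. It rose by 0.45 ± 0.16 in KO, or 1.36-fold (edgeR adjusted p = 0.0352), and its value in WT was 0.26 ± 0.13 (edgeR adjusted p = 0.14). The KO call was lost with library totals alone (0.34, edgeR adjusted p = 0.104) and without KO CM library 1 or 3 or KO control library 1 or 2 (edgeR adjusted p = 0.0522, 0.146, 0.103 and 0.126). The KO to WT difference of P2ry13 was 0.05 in CM and -0.13 ± 0.15 in control medium (edgeR adjusted p = 0.869 and 0.586). Their host Med12l averaged 1.64 ± 0.429 CPM in KO and 1.42 ± 0.116 CPM in WT in CM, and 1.76 ± 0.278 CPM in KO and 1.82 ± 0.489 CPM in WT in control medium.

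Olfml3 was almost absent in CM. It had 3, 4 and 3 counts in KO libraries in CM, against 251, 253 and 190 counts in KO libraries in control medium. In WT cells it had 2, 3, 5 and 9 counts in CM, against 106, 88, 170 and 228 counts in control medium. The media did not overlap in either genotype. Per scaled total it was 65.2-fold lower in KO cells in CM, with a 95% interval from 35.2 to 137, and 28.9-fold lower in WT cells in CM, from 18.3 to 48.4. These intervals cover counting error only and are too narrow, since a fragment that spans exons can be counted in each. The fitted log2 fold change was -5.97 ± 0.28 in KO and -4.8 ± 0.24 in WT. Olfml3 passed the low-count filter only through the control-medium groups, so it had to differ between media, and no test of that difference is given.

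In control medium, where every library passed the filter, Olfml3 averaged 4.43 ± 0.132 CPM in KO (SD, n = 3) and 2.2 ± 0.417 CPM in WT (SD, n = 4). All KO control libraries were above all WT ones. The difference was 1.01 ± 0.17, or 2.01-fold (edgeR adjusted p = 0.00414), and it passed in all 26 alternatives. It was 1.15 against WT libraries 1 and 2 alone and 0.89 against 3 and 4 alone (edgeR adjusted p = 0.00477 and 0.00151). In CM, where counts are few, the difference was -0.16 ± 0.42 (edgeR adjusted p = 0.861), and no difference was detectable at this depth.

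Aif1 was the most abundant of the 6 genes and kept the largest share of its control level among the 4 that were far lower in CM. It had 13.7, 17.7 and 15 CPM in KO libraries in CM, against 62.9, 62.6 and 72.0 CPM in KO libraries in control medium. In WT cells it had 17.1, 16.6, 17.0 and 18.3 CPM in CM, against 46.4, 54.8, 54.2 and 56.4 CPM in control medium. The media did not overlap in either genotype. Aif1 fell by 2.09 ± 0.10 on the log2 scale in KO, to 23.6% of control medium (edgeR adjusted p = 2.56e-10). It fell by 1.62 ± 0.08 in WT, to 32.6% (edgeR adjusted p = 5.25e-10). In control medium the KO libraries were all above the WT libraries, by 0.31 ± 0.09, which narrowly missed the threshold (edgeR adjusted p = 0.0504). This value passed in 11 of 26 alternatives, with the WT libraries 1 and 2 alone (0.38, edgeR adjusted p = 0.0422) and 3 and 4 alone (0.25, edgeR adjusted p = 0.0339) among them. In CM the KO to WT difference was -0.16 ± 0.09 (edgeR adjusted p = 0.316).

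Neither the choice of genes nor the filter fixed the CM response of P2ry12, P2ry13 and Aif1. Of these 3, Aif1 was called lower and P2ry13 higher in KO, where 38.1% of all tested genes were called, 20% higher and 18.2% lower. In WT, Aif1 was called lower, where 37.3% of all genes were called, 19.3% higher and 18% lower. Of all 6, Cx3cr1 was called between KO and WT in CM, where 4.59% of genes were called, 3.1% higher and 1.49% lower. In control medium Cx3cr1, Gpr34 and Olfml3 were called higher in KO, where 5.32% of genes were called, 2.82% higher and 2.5% lower. The media did not overlap for any of the 6 genes in KO, where 54.6% of all tested genes did not overlap, nor for 4 of the 6 in WT, where 33.8% did not. Both counts include Cx3cr1 and Gpr34, which were chosen for that difference, and Olfml3, which entered through the control-medium groups alone, so nothing is read from them.

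**Figure D2:**
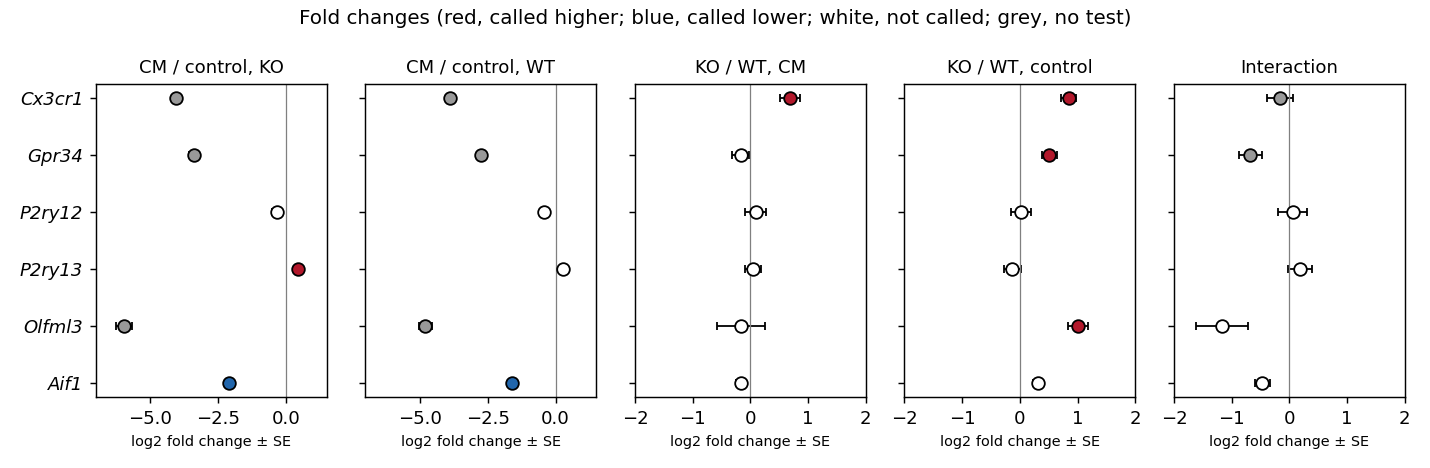
Log2 fold change ± SE of each of the 6 genes in the 5 comparisons (CM over control medium in KO and in WT, KO over WT in CM and in control medium, and the KO response minus the WT response). The axis is wider in the 2 CM panels, and grey points are given without a test. The white interaction point of Olfml3 is also given without a test. Cx3cr1 and Gpr34 stand at -4.04 and -3.41 in KO in CM over control medium, and P2ry12 and P2ry13 near 0.

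Whether the response to CM differed with genotype was tested as an interaction, the KO response minus the WT response. Cx3cr1 and Gpr34 were picked from the responses it compares, so their values carry no test. Olfml3 entered through the control-medium groups alone, which fixed the responses compared, so its value carries no test either. None of P2ry12, P2ry13 and Aif1 passed. Of all tested genes, 0% were called by edgeR, with 1050 genes at an unadjusted p below 0.05 and 84 called by DESeq2. The value was -0.16 ± 0.22 for Cx3cr1 and -0.68 ± 0.20 for Gpr34. Aif1 had -0.47 ± 0.13 (edgeR adjusted p = 0.33). P2ry12 had 0.06 ± 0.25 and P2ry13 0.18 ± 0.21 (edgeR adjusted p = 0.985 and 0.899). The value of Olfml3, without a test, was -1.17 ± 0.45. Aif1 passed with a term for WT libraries 3 and 4 (-0.47, edgeR adjusted p = 0.0475) and with the replicate number as a block within genotype, an alternative chosen after seeing the data (-0.47, edgeR adjusted p = 0.0417). Over all alternatives its adjusted p ran from 0.0417 to 0.557.

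For the 4 genes that were far lower in CM, each exon with at least 100 counts was lower too. For Cx3cr1, the 3661-bp exon in CM had 5.95% of its control-medium level in KO and 6.74% in WT, and the 92-bp exon 8.97% in KO and 6.25% in WT. The 3 exons of Gpr34 kept 7.37 to 9.9% in KO and 13.1 to 15.8% in WT. The 1270-bp exon of Olfml3 kept 1.44% in KO and 3.78% in WT. The 7 well-counted Aif1 exon entries kept 19.0 to 26.3% in KO and 31.5 to 33.6% in WT, and the entries of 175 and 178 bp have the same counts because their models overlap. P2ry12 was uneven, with 77.7% in KO and 67% in WT at its 1986-bp exon, 73.6% in KO and 82.7% in WT at its 163-bp exon, and values on both sides of 100% elsewhere. Its 65-bp exon had 92.3% in KO and 173% in WT, and its 212-bp exon 125% in KO and 115% in WT. Both P2ry13 exons were above 100%, at 135% and 141% in KO and 119% and 140% in WT.

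**Figure D3:**
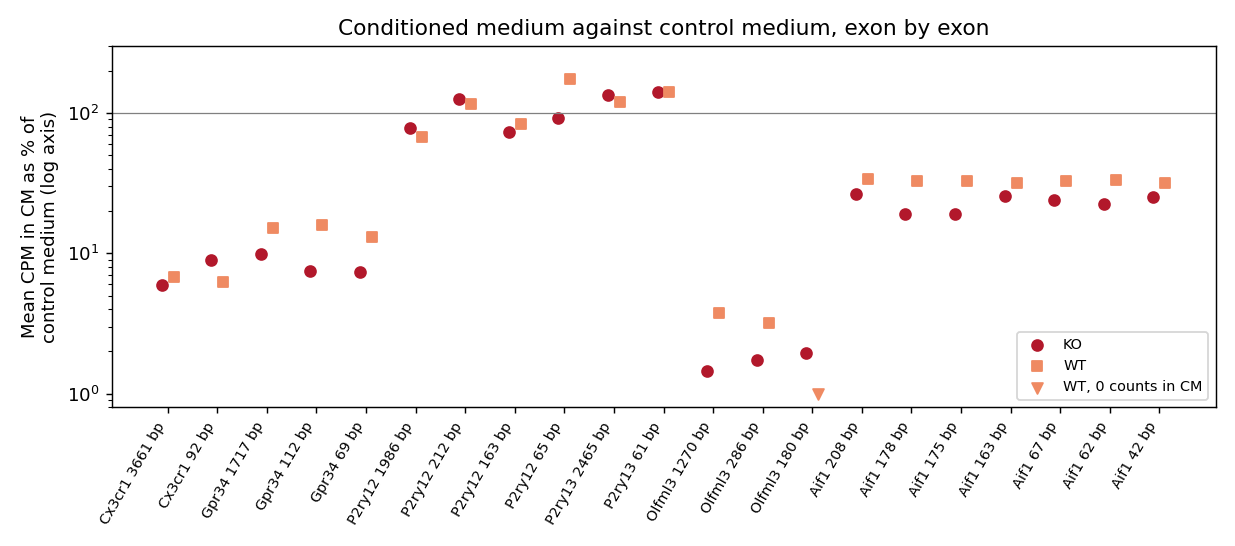
Mean CPM of each exon in CM as a percentage of control medium (log axis) for KO and WT, over the 21 of 24 exons with at least 100 counts in all libraries; the line marks 100% and the triangle an exon with 0 WT counts in CM, drawn at the foot of the axis. The exons of a gene lie together, apart from those of P2ry12.

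Per kilobase of exon, the order of mean levels in KO cells in control medium was Aif1 (59.3 CPM per kb in KO and 47.7 in WT), Cx3cr1 (13.3 and 7.4), Gpr34 (10.9 and 7.64), Olfml3 (2.55 and 1.27), P2ry13 (1.61 and 1.76) and P2ry12 (1.4 and 1.37). In WT, Gpr34 stood just above Cx3cr1 by less than the SD of Cx3cr1, and Olfml3 stood below P2ry13, and below P2ry12 by less than its own SD. P2ry13 and P2ry12 differed by less than the sum of their SDs in KO control libraries. In CM, Aif1 stayed on top (14 CPM per kb in KO and 15.5 in WT), and P2ry13 followed (2.19 in KO and 2.12 in WT). Cx3cr1 had 0.81 CPM per kb in KO and 0.497 in WT in CM, below P2ry12 with 1.1 in KO and 1.04 in WT.

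The genes nearest to Cx3cr1 in pattern, by mean absolute difference of centred log2 CPM over the 14 libraries among 9929 genes, were Angptl4 (0.32), Hpgd (0.421), Tle1 (0.467), Spata13 (0.509) and Gpr34 (0.533). Only genes averaging at least 4 CPM were compared, which leaves out Olfml3. Its distance from Cx3cr1 was 0.506, between those of Tle1 and Spata13. Those nearest to Gpr34 were Tle1 (0.238), Fos (0.255), Adam19 (0.294), Adgre4 (0.303) and Zfyve28 (0.322). These distances include the difference between media for which Cx3cr1 and Gpr34 were picked. The filter also fixed that difference for Olfml3, so nothing is read from the likeness of these members. The libraries share their media and depth. By Pearson correlation, 1 of the 5 genes nearest to Cx3cr1 and 0 of those nearest to Gpr34 stayed among the nearest 5.

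The partners of these receptors moved in both directions, and each change called a rise or fall here passed an edgeR adjusted p of 0.05. The shares over all tested genes were 20% called higher and 18.2% lower in KO, and 19.3% higher and 18% lower in WT. Of the 4 genes of the fractalkine axis, 1 was called higher and 3 lower in CM in each genotype. Cx3cl1, the ligand, fell by 1.67 ± 0.23 in KO and by 1.41 ± 0.19 in WT (edgeR adjusted p = 2.57e-05 and 2.19e-05). Of its proteases, Adam10 rose by 0.49 ± 0.06 in KO and 0.49 ± 0.05 in WT, and Adam17 fell by 0.34 ± 0.06 in KO and by 0.37 ± 0.05 in WT. Among the P2 receptors, 7 of 13 tested were called higher and 3 lower in KO, and 6 higher and 2 lower in WT, beside the same all-gene shares. The higher counts include Gpr171, at 0.879 CPM in KO and 0.657 CPM in WT in CM. In control medium it had 0.155 CPM in KO and 0.159 CPM in WT. It passed the low-count filter only through CM libraries, so its rise carries no test. Whether other genes of these lists entered in that way is not given here. The ATP-gated channel P2rx1 rose by 3.67 ± 0.53 in KO and 3.25 ± 0.45 in WT, and the ADP receptor P2ry1 by 1.08 ± 0.13 in KO and 0.66 ± 0.11 in WT. Entpd1 (CD39), which breaks down extracellular ATP and ADP, fell by 1.09 ± 0.08 in KO and by 0.98 ± 0.07 in WT. Enpp1, another enzyme that cleaves nucleotides, rose by 1.14 ± 0.08 in KO and 0.93 ± 0.07 in WT. Abhd12, a lipase that breaks down lysophosphatidylserine, fell by 1.21 ± 0.09 in KO and by 1.14 ± 0.08 in WT, and the other 2 tested genes of that list did not pass. Of the actin partners of Aif1, Lcp1 fell by 0.56 ± 0.05 in KO and by 0.56 ± 0.04 in WT, and Rac2 rose by 0.57 ± 0.12 in KO and 0.49 ± 0.11 in WT. In the olfactomedin family 2 of 9 genes could be tested, and Olfm1 rose by 0.6 ± 0.1 in KO and 0.34 ± 0.09 in WT. Other chemokine receptors also moved both ways. Ccr1 rose by 4.34 ± 0.16 in KO and 3.96 ± 0.13 in WT, Ccr2 rose by 1.62 ± 0.14 in KO and 1.78 ± 0.12 in WT, and Cxcr4 fell by 1.32 ± 0.11 in KO and by 1.3 ± 0.09 in WT.

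Among the rest of the microglia signature, more genes were called lower than higher in CM. Over all tested genes, 20% were called higher and 18.2% lower in KO, and 19.3% higher and 18% lower in WT. Of 31 tested genes outside the 6, 19 were called lower and 6 higher in KO, with a median of -0.31 beside -0.01 over all genes. In WT 17 were called lower and 6 higher, with a median of -0.25 beside -0.01. Fcrls fell by 1.55 ± 0.07 in KO and by 1.66 ± 0.06 in WT, and Tgfbr1, a receptor of TGF-beta, which maintains microglia, by 1.48 ± 0.06 in KO and by 1.28 ± 0.05 in WT. Ltc4s, the leukotriene C4 synthase, rose by 2.14 ± 0.13 in KO and 1.97 ± 0.11 in WT. Siglech has the largest fitted fall of the list, but it rests on few counts, with 0, 0 and 1 in KO libraries in CM and 0, 4, 0 and 0 in WT libraries in CM. Siglech passed the low-count filter only through control-medium libraries, so its fall carries no test. It stays in the counts of genes called lower. Between genotypes, 4 were called higher and 3 lower in KO in CM, and 3 higher and 1 lower in control medium. Among all tested genes, 3.1% were called higher and 1.49% lower in CM, and 2.82% and 2.5% in control medium. Slco2b1, C1qa and C1qb were higher in KO in both media, Slco2b1 by 0.89 ± 0.10 in CM and 0.96 ± 0.10 in control medium. Ctss, the protease cathepsin S, was lower in KO in both, at -0.4 ± 0.10 in CM and -0.35 ± 0.10 in control medium (edgeR adjusted p = 0.0321 and 0.0488).

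**Figure D4:**
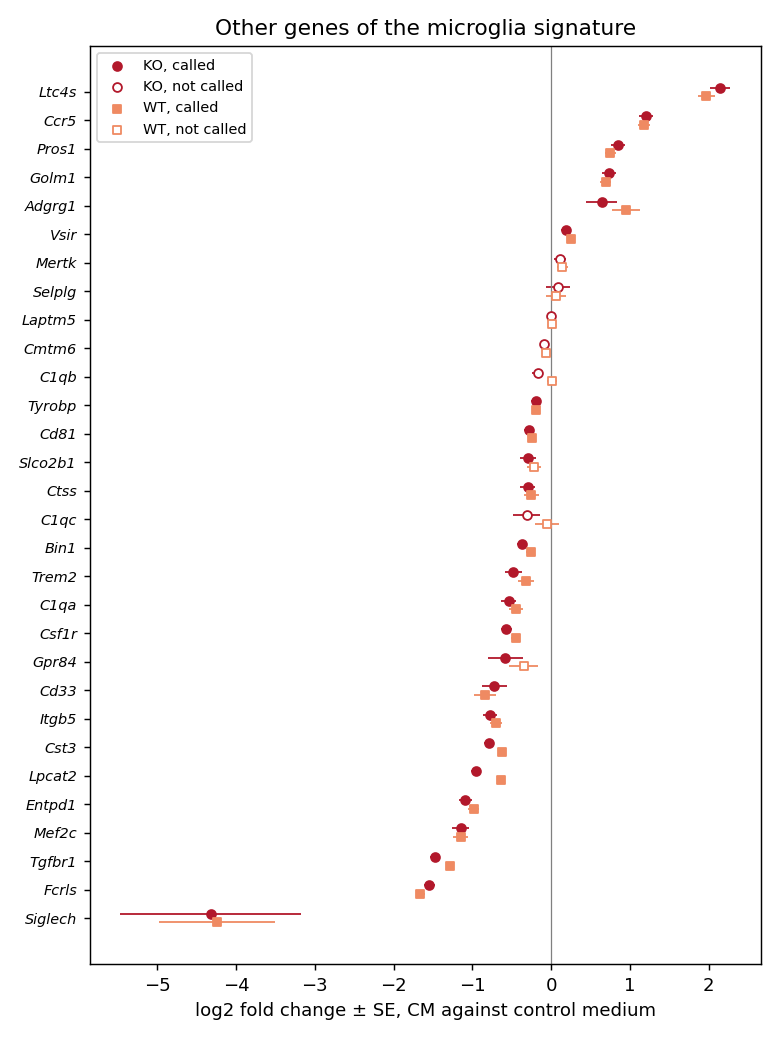
Log2 fold change ± SE in CM over control medium for 30 of the 31 tested genes of the microglia signature other than the 6 members, in KO and WT; filled points passed an edgeR adjusted p of 0.05. Most filled points lie below 0, and Ltc4s lies highest at 2.14 in KO and 1.97 in WT. Siglech entered through control-medium libraries alone, so its filled points carry no test.

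Of the TGF-beta pathway, 9 of 20 tested genes were called lower and 4 higher in KO, and 8 lower and 2 higher in WT, beside the same shares over all genes (18.2% lower and 20% higher in KO, 18% and 19.3% in WT). Skil, a repressor of that pathway that TGF-beta itself induces, fell by 1.66 ± 0.09 in KO and by 1.57 ± 0.08 in WT. Of 16 transcription factors of microglia, 6 were called higher and 4 lower in KO, and 6 higher and 5 lower in WT, beside 20% higher and 18.2% lower over all genes in KO and 19.3% and 18% in WT. Mef2c fell by 1.15 ± 0.11 in KO and by 1.15 ± 0.09 in WT, and Bhlhe40 rose by 2.96 ± 0.08 in KO and 2.6 ± 0.06 in WT.

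Summed markers of some other cell types differed between media. The sums of neutrophils and osteoclasts also did not overlap between genotypes, narrowly so for osteoclasts, and the hepatocyte and hepatoma list did not in control medium. Of all tested genes, 20.9% did not overlap between genotypes in CM and 21.8% in control medium. The summed neutrophil list was 87.0 to 94.0 CPM in KO and 45.1 to 49.7 CPM in WT in CM, and 23.7 to 24.8 CPM in KO and 13.6 to 17.3 CPM in WT in control medium, with 1 of 10 markers at 1 CPM or more in each group. Single neutrophil markers went both ways: of 6 tested, 2 were called higher and 2 lower in CM in KO (median -1.09), and 2 higher and 1 lower in WT (median -0.32). Mmp8 rose by 2.04 ± 0.10 in KO and 1.74 ± 0.08 in WT, and S100a9 fell by 3.01 ± 0.82 in KO, with -0.24 ± 0.56 in WT. Between genotypes, Mmp8 was the only 1 of the 6 called. It was higher in KO by 0.94 ± 0.09 in CM and by 0.64 ± 0.09 in control medium, where 4.59% and 5.32% of all genes were called. The dendritic cell list was 67.5 to 80.1 CPM in KO and 58.2 to 70.1 CPM in WT in CM, and 19.9 to 28.7 CPM in KO and 18.9 to 26.5 CPM in WT in control medium, so the genotypes overlapped in both media. Of its 8 markers, 2 reached 1 CPM in WT in CM and 1 in each other group, so the sum rests on few genes. Its single markers also went both ways. Of 6 tested, 2 were called higher and 2 lower in CM in each genotype (median -0.49 in KO and -0.35 in WT). The 2 lower were Siglech and Flt3, which entered through control-medium libraries alone, so nothing is read from these 2 calls. The osteoclast list was 37.4 to 44.6 CPM in KO and 44.8 to 47.2 CPM in WT in CM, and 17.2 to 19.8 CPM in KO and 20.4 to 27.2 CPM in WT in control medium. Between genotypes, 0 of 4 tested osteoclast markers were called in CM. In control medium 1 was, Ctsk, lower in KO by 0.62 ± 0.12 (edgeR adjusted p = 0.00938). Of all genes, 4.59% and 5.32% were called between genotypes in these media. Against control medium, 2 of the 4 were called higher and 1 lower in CM in each genotype (median 1.43 in KO and 0.27 in WT). Among all tested genes, 20% were called higher and 18.2% lower in KO, and 19.3% and 18% in WT. The macrophage list was 20192.9 to 21008.2 CPM in KO and 30264.8 to 33215.2 CPM in WT in CM, and 21754.3 to 22451.0 CPM in KO and 30705.5 to 36104.0 CPM in WT in control medium. It includes Lyz2, the gene that carries the Cre. Lyz2 was lower in KO by 1.11 ± 0.07 in CM and by 1.1 ± 0.07 in control medium (edgeR adjusted p = 1.83e-06 and 9.46e-07). The other 9 of the 10 macrophage markers were not called between genotypes in either medium. The lymphocyte list reached at most 0.347 CPM in a library and the fibroblast list at most 1.06 CPM. The hepatocyte and hepatoma list was 1.87 to 2.32 CPM in KO and 2.0 to 2.53 CPM in WT in CM, and 2.16 to 3.03 CPM in KO and 1.61 to 1.93 CPM in WT in control medium. Of its 6 genes, Alb, Serpina1a and Fgb were at 0 in every library. Afp, the 1 that could be tested, was at -0.23 ± 0.17 in CM in KO and 0.37 ± 0.15 in WT (edgeR adjusted p = 0.31 and 0.0618), and in control medium it was 0.58 ± 0.16 higher in KO than in WT (edgeR adjusted p = 0.0445). The part of these shifts in the values of the 6 genes was not tested.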

How the data were processed

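RNA of 14 macrophage cultures was sequenced as paired reads from a stranded kit, per the labels' protocols. The authors deposited raw counts per exon, with exon lengths, after HISAT2 alignment to mm10, per the submitters' processing notes; the counting tool and strand setting are not given in the sources used here. Of 427386 exon entries, 196941 repeated entries of overlapping transcript models (48.6% of the count total) were removed, and distinct exons were summed per gene.

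Genes were tested in 1 fit over all 14 libraries by the quasi-likelihood method of edgeR 4.0.16 (R 4.3.3) after TMM scaling. Low genes were removed by filterByExpr (at least 10 counts, and 15 in total), and p-values were adjusted by Benjamini-Hochberg over the remaining 13311 genes, with calls below 0.05. DESeq2 1.42.0 was an alternative. The test was checked on simulated counts with 1 mean per gene apart from the changes put in, so without the medium effect and WT sets of these data. For the interaction, 86% of 2-fold and 43% of 1.5-fold changes were recovered. In the other comparisons these were 93 to 100% and 72 to 79%. Since the labels name no animal for a library, a p-value here reflects only how these libraries vary, and that variation may be technical. The members, gene lists and rules were chosen with earlier results of these data known. The genes named are the 6 members, the 5 nearest genes in pattern, overlapping genes, Ezh2, and ligands and enzymes of each list. From each list, genes were also drawn from the 3 with the smallest p in each CM comparison. Not all of those 3 are named. Siglech, Slco2b1, C1qa, C1qb, Ctss, Ccr1, Ccr2, Cxcr4 and the marker genes were added after their values were seen. The values of 1 gene of the microglia signature are not reported here, in the text or the plot, and it stays in the counts and medians of its list.

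Deviations from the group means correlated between CM and control libraries of the same number at 0.33, 0.35, 0.47 and 0.46 in WT, so those numbers pair by the limit of 0.1, and at 0, -0.04 and 0.05 in KO, where they do not. Across numbers, WT libraries correlated at 0.31 to 0.46 within 1 and 2 and within 3 and 4, and at -0.43 to -0.35 between these sets, so the numbers cannot be told apart from the sets.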

Additional observations from a re-analysis of the deposited data

How the results depend on the processing

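No result changed direction with a call under any alternative tried. KO against WT in CM gave 611 called genes, and 1219 with DESeq2, 923 with a term for WT libraries 3 and 4 (0 of the 6 genes called, against 1) and 4791 against WT libraries 3 and 4 alone. Leaving out 1 library gave 217 to 721 genes and 0 to 1 of the 6. KO against WT in control medium gave 708 genes, and 1501 with DESeq2, 283 with only the groups compared, 385 with the most-counted exon of each gene and 5246 against WT libraries 3 and 4 alone. Leaving out 1 library gave 224 to 1769 genes and 2 to 4 of the 6. The interaction gave 0 genes, and 84 with DESeq2, 164 with the term (1 of the 6), 11 and 54 with WT libraries 1 and 2 or 3 and 4 alone, and 205 with the replicate block within genotype, chosen after seeing the data (2 of the 6, Gpr34 among them, which was picked from the responses compared). Leaving out 1 library gave 0 to 2 genes and 0 to 0 of the 6. CM gave 4297 to 5218 genes in KO and 4498 to 4949 in WT without 1 library, with 2 to 3 of the 4 genes other than Cx3cr1 and Gpr34 in each, Olfml3 included although the filter fixed its difference. Library totals alone put the median of all genes at -0.119 for CM in KO and at -0.088 in WT, against -0.012 and -0.006 with TMM. Of the genes called in CM, 34.9% were then higher in KO and 35.9% in WT, against 52.4 and 51.8% with TMM. KO calls in control medium were then 76.9% higher, against 53% with TMM. The causes of these changes were not tested. With the replicate block, the KO to WT difference of Aif1 in control medium was 0.35 (edgeR adjusted p = 0.0226), although the numbers do not pair KO with WT libraries. The block changed no call of the 6 genes other than this and those given beside P2ry12 and the interaction of Aif1, and the interaction of Gpr34. The few counts of Olfml3 in CM limit its comparison between genotypes there.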

Other observations

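Of 25 genes that microglia raise near damage, 10 were called higher and 8 lower in CM in KO, with a median of 0.1, and 11 higher and 10 lower in WT, with a median of 0.13. Over all tested genes, 20% were called higher and 18.2% lower in KO, and 19.3% higher and 18% lower in WT. The chemokine Ccl6 rose by 4.38 ± 0.13 in KO and 4.23 ± 0.12 in WT, and Spp1 (osteopontin) by 1.8 ± 0.08 in KO and 1.38 ± 0.07 in WT. Of 12 genes of patrolling monocytes, the blood cells that Cx3cr1 marks, 5 were called higher and 4 lower in KO, and 4 higher and 4 lower in WT. Nr4a1, a nuclear receptor those monocytes need, fell by 2.84 ± 0.2 in KO and by 3.33 ± 0.17 in WT. Itgal, an integrin, fell by 2.4 ± 0.13 in KO and by 2.08 ± 0.11 in WT, and Ceacam1 rose by 2.16 ± 0.09 in KO and 1.85 ± 0.08 in WT.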
